A study of Mus musculus with 2 samples.

Results

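The genes described here are 10 genes of fatty acid uptake and oxidation in muscle: Lpl, Angptl4, Cd36, Fabp3, Acsl1, Cpt1b, Acadm, Hadha, Ucp3 and Pdk4. They were taken by symbol from the 27998 genes of the deposited snRNA-Seq matrices, and their levels were read by the main myosin of each nucleus, in nuclei outside the fibres and by library. Nuclei came from GP muscle (gastrocnemius and plantaris, in the calf) of mice labelled as strain B6C3F1, at 5 months of age. The floxed founders had been mated to C57BL/6N mice before the HSACreERT2 cross. The Ctrl mice were Net39 fl/fl without Cre, and the cKO mice were HSACreERT2;Net39 fl/fl. Both groups were sampled 3 months after tamoxifen. The human skeletal actin promoter restricts the recombinase to muscle fibres, so nuclei of other cells keep the floxed gene in cKO muscle. The question was how the RNA of muscle nuclei differs after adult loss of Net39, a membrane protein of the nuclear envelope whose gene symbol is Plpp7. Each group had 1 library made from 3 pooled muscles. There were therefore no replicates and no test was possible, and all intervals below are 95% intervals that cover counting error only.

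Muscle fibres burn fatty acids that arrive in lipoproteins or bound to albumin. Lipoprotein lipase, the product of Lpl, frees them from triglycerides at the capillary wall and is inhibited by the secreted protein Angptl4. Cd36 carries fatty acids across membranes, Fabp3 binds them in the cytosol, and Acsl1 activates them to acyl-CoA. Cpt1b, the muscle form of carnitine palmitoyltransferase, lets them enter mitochondria, where Acadm (medium-chain acyl-CoA dehydrogenase) and Hadha (a subunit of the trifunctional protein) act in beta-oxidation. Pdk4 is a kinase that inhibits pyruvate dehydrogenase and so spares glucose when fatty acids are used, and Ucp3 is a carrier protein of the inner mitochondrial membrane that is enriched in muscle. Oxidative fibres, which carry the myosin genes Myh7 or Myh2, are known for higher fatty acid use than the glycolytic fibres that carry Myh4, with Myh1 fibres between them.

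The nuclei used numbered 3526 in Ctrl and 3595 in cKO, with 8930961 and 7237405 UMIs and medians of 2040 and 1611 UMIs per nucleus. A UMI marks 1 captured RNA molecule, and 5 barcodes occurred in both libraries. Myonuclei, the nuclei of muscle fibres, numbered 2898 in Ctrl and 3318 in cKO, and 514 and 248 nuclei lay outside the fibres. A cluster of 114 Ctrl and 29 cKO nuclei led by Plekhh1 met the rule for neither and is described at the end. The main myosin of a myonucleus was the gene among Myh7, Myh2, Myh1 and Myh4 with 60% or more of their UMIs, where these numbered 3 or more, and the nucleus is called dominant for it. Of the Ctrl myonuclei, 20 were Myh7-, 165 Myh2-, 301 Myh1- and 1838 Myh4-dominant. The cKO library had 280, 326, 386 and 1430 of them. Ctrl myonuclei had 52.9 CPM of Plpp7 itself and cKO myonuclei 42.3 CPM. The paper reports reduced Net39 mRNA in cKO muscle by bulk RNA-Seq. Counting from the 3′ end is not aimed at the deleted first exon. Whether that accounts for the level here was not tested, so the level does not check the deletion. Malat1 took 26.6% of myonuclear UMIs in Ctrl and 31.3% in cKO. Levels are given as CPM, the UMIs of a gene divided by all UMIs of the same nuclei and scaled to a total of 1000000, and a log2 ratio is always cKO CPM over Ctrl CPM unless 2 classes are named.

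Over all myonuclei, 8 of the 10 genes had at least 20 UMIs over both libraries. Pdk4 and Ucp3 were far lower in cKO, and the other 6 were higher in cKO by less than 2-fold. The 2 genes that were at least 2-fold lower compare with 5.29% of the 11426 genes with as many UMIs, and 0 of the 8 were at least 2-fold higher, against 3.82% of all genes. The median log2 ratio was 0.38 over the 8 genes and −0.08 over all genes.

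Pdk4 (ENSMUSG00000019577, chr6:5483351-5496309, minus strand) was at 652 CPM (634 to 670, 4940 UMIs) in Ctrl and 140 CPM (132 to 150, 946 UMIs) in cKO myonuclei. Its log2 ratio was −2.21 (−2.32 to −2.11), so that Ctrl was 4.64-fold higher. Ucp3 (ENSMUSG00000032942, chr7:100472990-100486432, plus strand) was at 241 CPM (230 to 252) in Ctrl and 59.8 CPM (54.1 to 66) in cKO, a log2 ratio of −2.01 (−2.17 to −1.85) or a 4.03-fold higher level in Ctrl. For neither gene did the intervals of the libraries overlap. High counts in single nuclei followed the same order: 9.56% of Ctrl myonuclei and 0.693% of cKO myonuclei held 5 or more UMIs of Pdk4, and the highest counts were 31 and 12. These counts were not adjusted for depth, whose median was 2134 UMIs in Ctrl and 1632 UMIs in cKO myonuclei.

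The promoters of these 2 genes are shown because both stood past 2-fold in every myosin class described below, Ucp3 in Myh7-dominant nuclei from few UMIs. The 250 bases before the start come from RefSeq on GRCm38.p6, at chr6:5496279-5496528 on the minus strand for Pdk4 and chr7:100472741-100472990 on the plus strand for Ucp3, each written 5′ to 3′ along the gene. Capitals mark AGGTCA, the half-site bound by many nuclear receptors.
Pdk4: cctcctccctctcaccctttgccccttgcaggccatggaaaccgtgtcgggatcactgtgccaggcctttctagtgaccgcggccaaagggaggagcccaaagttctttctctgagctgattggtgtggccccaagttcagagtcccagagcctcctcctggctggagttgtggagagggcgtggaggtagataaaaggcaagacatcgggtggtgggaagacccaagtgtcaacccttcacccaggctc
Ucp3: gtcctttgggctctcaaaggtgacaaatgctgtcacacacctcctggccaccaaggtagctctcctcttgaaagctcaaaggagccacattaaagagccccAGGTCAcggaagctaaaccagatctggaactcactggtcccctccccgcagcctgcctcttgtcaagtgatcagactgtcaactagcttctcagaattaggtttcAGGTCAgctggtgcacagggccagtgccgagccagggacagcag

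Both strands were searched from 250 bases before to 50 bases after the start for AGGTCA, for the FOXO motif TGTTTAC, for the ERR motif TCAAGGTCA, which contains AGGTCA, and for the E-box CACGTG. Ucp3 had 2 copies of AGGTCA on the gene's strand, beginning 149 and 44 bases before the start. Acadm and Cd36 had 1 copy each on the other strand, 249 and 228 bases before it. For Cd36 the bases before the start lie at chr5:17835897-17836146, within the span of the gene given below, so this start is an internal one. AGGTCA lay in 3 of the 8 windows of the 7 genes with an entry, and in 16.3% of all 32851 windows. The other motifs lay in none of the 8 windows, against 3.65% of all windows for the FOXO motif, 0.423% for the ERR motif and 7.15% for the E-box. Pdk4 had none of the 4 motifs in this window, which says nothing of sites elsewhere.

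Of the genes that supply fatty acids, Lpl (chr8:68880491-68907448) was at 72.8 CPM (66.9 to 79.1) in Ctrl and 131 CPM (122 to 140) in cKO myonuclei, with a log2 ratio of 0.85 (0.69 to 1.00). Cd36 (chr5:17781690-17888801) was at 143 CPM (134 to 151) and 175 CPM (165 to 185), a log2 ratio of 0.29. Fabp3 (chr4:130308595-130315463) was at 23.9 CPM (20.5 to 27.6) and 37.1 CPM (32.7 to 42.0), a log2 ratio of 0.64. All of these uptake genes were higher in cKO with intervals that did not overlap. Fabp3 overlaps Zcchc17 on the opposite strand, at 32.2 and 37.1 CPM, as Ucp3 overlaps Gm10603, with 22 and 12 UMIs, and Hadha overlaps Garem2. Cell Ranger at its defaults counts reads on the sense strand of a gene.

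Acsl1 (chr8:46471037-46536051) was at 246 CPM (235 to 258) in Ctrl and 267 CPM (255 to 280) in cKO. Its log2 ratio of 0.12 (0.02 to 0.21) was the smallest of the 8, and with nuclei of every cluster that had a main myosin it was 0.09 with an interval that included 0. Acadm (chr3:153922357-153944632) was at 73.5 CPM (67.5 to 79.8) and 120 CPM (112 to 129), a log2 ratio of 0.71. Hadha (chr5:30118304-30155162) was at 88.5 CPM (81.9 to 95.5) and 122 CPM (113 to 130), a log2 ratio of 0.46. Acadm and Hadha were thus higher in cKO while Pdk4 and Ucp3 were lower in the same nuclei.

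Cpt1b and Angptl4 were too rare in myonuclei for most comparisons. Cpt1b (chr15:89416405-89425863) had 1 UMI in Ctrl and 3 UMIs in cKO, at or under the floor of 3 UMIs that a count of 0 allows, so no ratio was formed. Angptl4 (chr17:33773750-33781830) had 8 UMIs in Ctrl and 0 in cKO myonuclei, which with that floor set over the cKO library makes it at least 2.37-fold lower in cKO if the 8 Ctrl UMIs are taken as exact. The counting interval of the log2 ratio, which includes the error of those 8 UMIs, reached −0.60 and so does not exclude a ratio under 2-fold.

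For 4 genes the share of myonuclei with a UMI gave the same order once each nucleus had been thinned at random to 500 UMIs. Pdk4 was seen in 25.5% (23.9 to 27.1) of Ctrl and 6.18% (5.38 to 7.05) of cKO myonuclei, against 62.5% and 17.9% before thinning. Ucp3 was seen in 10.8% (9.69 to 12) and 3.29% (2.71 to 3.95), against 37.6% and 9.73% before thinning. Lpl was seen in 3.59% (2.94 to 4.33) of Ctrl and 6.03% (5.24 to 6.89) of cKO myonuclei, and Acadm in 3.76% (3.1 to 4.52) and 5.88% (5.10 to 6.73). For the other 4 genes the intervals of the 2 libraries overlapped at this depth. As a background, FAP-like nuclei of fibro-adipogenic progenitors held a UMI of Pdk4 in 6.16% (3.63 to 9.68) of 276 Ctrl and 0% (0 to 2.66) of 137 cKO nuclei, and of Ucp3 in 2.17% and 0.730%. The FAP-like share was 5.07% (2.80 to 8.36) in Ctrl and 2.92% (0.801 to 7.31) in cKO for Lpl and 1.81% (0.591 to 4.18) and 3.65% (1.20 to 8.31) for Acadm, so the Ctrl myonuclear share of Lpl did not exceed the share in these nuclei. In cKO the intervals of both genes overlapped those of myonuclei. Median depths before thinning were 2134 and 1632 UMIs in Ctrl and cKO myonuclei and 1276 and 1194 UMIs in FAP-like nuclei.

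Levels of most of these genes followed the myosin classes. In Ctrl, 5 of the 8 genes were at least 2-fold higher in Myh2- than in Myh4-dominant nuclei (Hadha, Lpl, Cd36, Fabp3 and Acsl1), against 12.1% of the 9105 genes with at least 20 UMIs. Ucp3 was the 1 gene that was at least 2-fold lower, against 14.5% of genes. In cKO, 4 of the 8 were at least 2-fold higher in Myh2-dominant nuclei (Acadm, Lpl, Cd36 and Fabp3), against 8.43% of 7934 genes, and Ucp3 was again lower, against 13.7%. The median log2 ratio of Myh2- over Myh4-dominant nuclei was 1.50 for the 8 genes in Ctrl and 1.11 in cKO, and it was 0.02 and −0.10 over all genes.

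**Figure D1:**
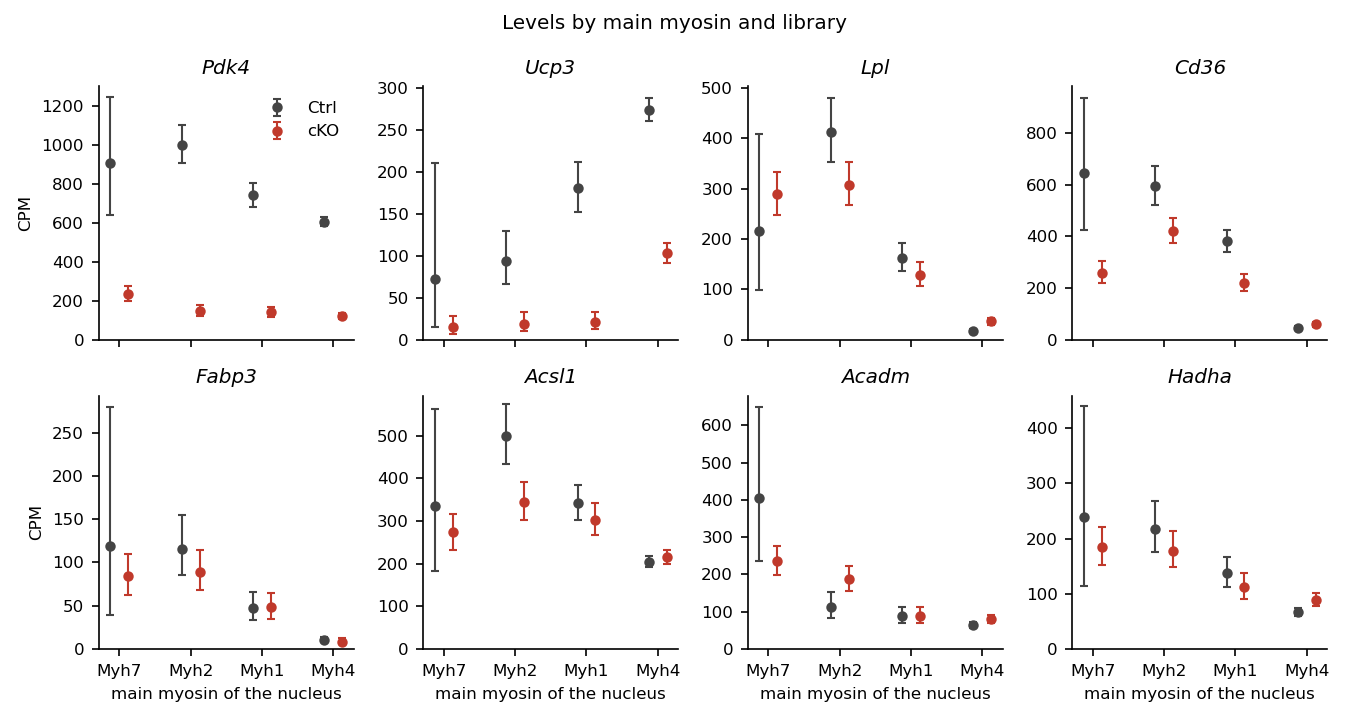
Level of 8 genes (CPM, vertical axis from 0) in nuclei grouped by main myosin (horizontal axis), for the Ctrl library in grey and the cKO library in red, with bars for exact 95% Poisson intervals. Pdk4 and Ucp3 lie lower in cKO at every myosin, Ucp3 is highest in Myh4-dominant nuclei, and the other genes are lowest there. The 20 Myh7-dominant Ctrl nuclei give the wide bars.

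Lpl showed the steepest gradient in Ctrl, with 413 CPM (353 to 481) in Myh2-, 163 CPM (136 to 193) in Myh1- and 17.5 CPM (14.1 to 21.5) in Myh4-dominant nuclei. Its level in Myh7-dominant nuclei, 215 CPM (98.4 to 408), rested on 9 UMIs and could not be told from either neighbour in that order. In cKO it was at 308 CPM (268 to 353) in Myh2-, 289 CPM (248 to 334) in Myh7-, 129 CPM (107 to 155) in Myh1- and 36.2 CPM (29.6 to 43.8) in Myh4-dominant nuclei. Lpl was 23.6-fold higher in Myh2- than in Myh4-dominant nuclei in Ctrl and 8.52-fold higher in cKO.

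Cd36 had a like order in Ctrl, with 645 CPM (425 to 939) in Myh7-, 594 CPM (521 to 674) in Myh2-, 381 CPM (339 to 426) in Myh1- and 45.4 CPM (39.8 to 51.6) in Myh4-dominant nuclei. The Myh7- and Myh2-dominant nuclei did not differ beyond counting error. In cKO the order was Myh2- (420 CPM, 373 to 472), Myh7- (260 CPM, 221 to 303), Myh1- (220 CPM, 190 to 253) and Myh4-dominant (58.6 CPM, 50.1 to 68.0), with Myh7- and Myh1-dominant nuclei next to each other and overlapping. Fabp3 was at 116 CPM (85.5 to 155) in Myh2- and 10.4 CPM (7.81 to 13.6) in Myh4-dominant nuclei of Ctrl, and at 89.1 and 8.27 CPM in cKO, a ratio of 11.2 and 10.8.

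The enzymes had shallower gradients. Acsl1 was 2.45-fold higher in Myh2- (500 CPM, 433 to 574) than in Myh4-dominant nuclei (204 CPM, 192 to 217) of Ctrl and 1.60-fold higher in cKO. That cKO ratio, a log2 value of 0.68, was 0.20 (−0.19 to 0.58) where the main myosin was called after thinning to 500 UMIs. Hadha was 3.26-fold higher in Myh2- than in Myh4-dominant nuclei of Ctrl (218 and 66.8 CPM) and 2.00-fold higher, just under the threshold before rounding, in cKO (178 and 89.2 CPM). Acadm and Hadha had their highest level in Myh7-dominant nuclei in both libraries, for Hadha within counting error of Myh2-dominant nuclei. Acadm reached 406 CPM (237 to 650, 17 UMIs) there in Ctrl and 236 CPM (199 to 277) in cKO. In Ctrl this exceeded the Myh2-dominant level of 114 CPM (83.4 to 152) by 3.57-fold, while in cKO the Myh2-dominant level was 188 CPM (157 to 224) and the counting interval of the ratio included 1.

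Pdk4 varied less between the classes than between the libraries. In Ctrl it was at 1003 CPM (907 to 1105) in Myh2-, 908 CPM (643 to 1247) in Myh7-, 743 CPM (684 to 805) in Myh1- and 607 CPM (586 to 629) in Myh4-dominant nuclei. In cKO it was at 232 CPM (196 to 274) in Myh7-, 147 CPM (120 to 179) in Myh2-, 140 CPM (117 to 167) in Myh1- and 121 CPM (108 to 134) in Myh4-dominant nuclei. Its lowest Ctrl class therefore lay above its highest cKO class. Myh2- and Myh7-dominant nuclei of Ctrl overlapped, as did the last 3 classes of cKO.

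Ucp3 ran in the opposite direction to the uptake genes. In Ctrl it was at 274 CPM (260 to 288) in Myh4-, 180 CPM (152 to 212) in Myh1- and 94.1 CPM (66.6 to 129) in Myh2-dominant nuclei, with 3 UMIs in the Myh7-dominant nuclei. In cKO it was at 103 CPM (91.3 to 115) in Myh4-dominant nuclei and between 14.5 and 21.3 CPM, with overlapping intervals, in the other 3 classes.

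Within each main myosin, the cKO library was again compared with Ctrl to separate a shift in the mix of nuclei from a shift in their levels. In Myh2-dominant nuclei 2 of the 8 genes, Pdk4 and Ucp3, were at least 2-fold lower in cKO, against 6.14% of 4850 genes, and none was at least 2-fold higher, against 4.52%. Myh1-dominant nuclei gave the same 2 genes, against 5.28% of 5983 genes lower and 4.01% higher. In Myh4-dominant nuclei these 2 were lower, against 4.45% of 9915 genes, and Lpl was at least 2-fold higher, against 2.97%. Lpl was under 2-fold there with doublets kept (log2 ratio 0.97), with 5 myosin UMIs required (0.88) and with the main myosin called after thinning to 500 UMIs (0.19). It was also under 2-fold in the largest cluster of this class, as given below. The median log2 ratio of the 8 genes was −0.46 in Myh2-, −0.31 in Myh1- and 0.20 in Myh4-dominant nuclei, beside −0.13, −0.09 and −0.04 over all genes.

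For Pdk4 the log2 ratio was −1.97 (−2.49 to −1.41) in Myh7-, −2.77 (−3.09 to −2.45) in Myh2-, −2.40 (−2.69 to −2.12) in Myh1- and −2.33 (−2.50 to −2.17) in Myh4-dominant nuclei. It was −3.00 in mixed nuclei, which had no main myosin, and −1.90 in undetermined nuclei with too few myosin UMIs. Across the 8 clusters of myonuclei Pdk4 ranged from 460 to 914 CPM in Ctrl and from 90.5 to 197 CPM in cKO, so the ranges did not overlap, and in all 8 clusters the interval of the ratio lay below 0. The largest set of like nuclei, Myh4-dominant nuclei of cluster 0 (993 in Ctrl and 764 in cKO), had 600 CPM (571 to 629) and 120 CPM (103 to 140). In cluster 2 the difference was smaller for Myh4-dominant nuclei, at 345 and 171 CPM (−1.01, −1.67 to −0.36). For the Myh1-dominant nuclei of cluster 2, 26 in Ctrl and 81 in cKO, Pdk4 was at 279 and 220 CPM. That ratio, −0.35 (−1.04 to 0.38), lay within counting error of no difference. The Myh7- and Myh2-dominant nuclei of cluster 2 had −1.99 and −2.90.

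The log2 ratio of Ucp3 was −2.31 (−3.34 to −1.37) in Myh2-, −3.08 (−3.85 to −2.38) in Myh1- and −1.41 (−1.60 to −1.23) in Myh4-dominant nuclei. In Myh7-dominant nuclei it was −2.30, from 3 and 9 UMIs, with an interval of −4.31 to 0.22. All 8 clusters of myonuclei had a lower level in cKO, with log2 ratios from −3.22 to −1.02. In the Myh4-dominant nuclei of cluster 0 Ucp3 was at 279 CPM (260 to 300) in Ctrl and 114 CPM (97.1 to 133) in cKO.

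**Figure D2:**
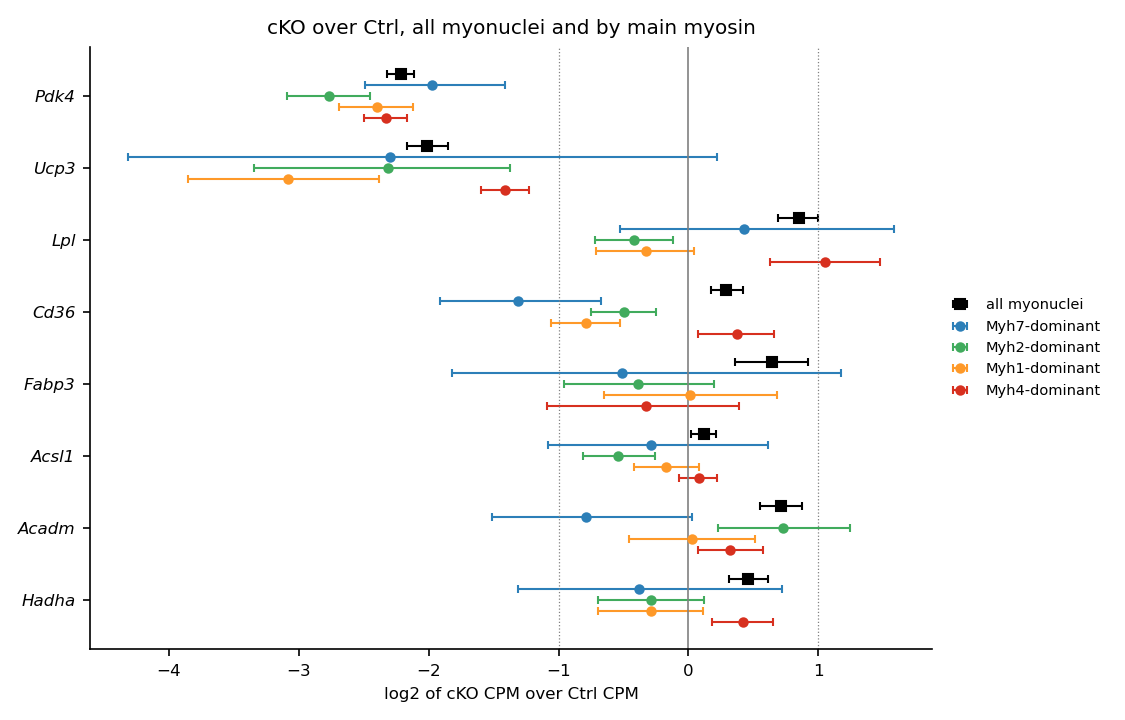
log2 of cKO CPM over Ctrl CPM for 8 genes (rows), over all myonuclei (black squares) and by main myosin (coloured circles), with exact conditional 95% intervals. Dotted lines mark 2-fold. Pdk4 and Ucp3 lie left of −1 in all 5 sets, while for Lpl and Cd36 the black square and the red circle of Myh4-dominant nuclei lie right of 0 and the Myh2- and Myh1-dominant nuclei lie left of it.

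Lpl and Cd36 had values on both sides of 0 in different classes, and the difference between classes was not tested. Lpl was higher in cKO in Myh4-dominant nuclei, with a log2 ratio of 1.05 (0.63 to 1.47), and lower in Myh2-dominant nuclei, with −0.42 (−0.72 to −0.12). After that thinning the first value had an interval of −0.70 to 1.10, and with Malat1 and mitochondrial genes left out of the total the second was −0.25 (−0.55 to 0.05). Most Myh2-dominant nuclei lay in cluster 4 (144 in Ctrl and 221 in cKO), where Lpl was at 417 and 395 CPM (−0.08, −0.41 to 0.26). The value below 0 in Myh2-dominant nuclei lay in their cluster 2, with 14 Ctrl and 87 cKO nuclei, at 607 and 177 CPM (−1.78, −2.60 to −0.91, 19 Ctrl UMIs). Cd36 was lower in cKO in Myh7- (−1.31, −1.91 to −0.67), Myh2- (−0.50, −0.75 to −0.25) and Myh1-dominant nuclei (−0.79, −1.06 to −0.53) and higher in Myh4-dominant nuclei (0.37, 0.07 to 0.66). After thinning, the Cd36 value in Myh1-dominant nuclei was −0.02 (−0.47 to 0.44) and that in Myh4-dominant nuclei 0.41 (−0.21 to 1.04). By cluster, Cd36 in Myh4-dominant nuclei was at 0.40 (−0.21 to 0.99) in cluster 0 and 1.10 (0.37 to 1.84) in cluster 3. It was at 0.51 (−0.08 to 1.08) in cluster 1 and −0.88 (−1.77 to 0.00) in cluster 2. In the Myh2-dominant nuclei of cluster 4 Cd36 was at 612 and 542 CPM (−0.18, −0.45 to 0.10), and in those of cluster 2 at 671 and 216 CPM (−1.63, −2.40 to −0.82). Its value below 0 in Myh1-dominant nuclei held in the most numerous cluster of the class, cluster 1 (242 and 272 nuclei), with −0.61 (−0.92 to −0.32). Over the 8 clusters of myonuclei without regard to myosin, Cd36 lay below 0 in 5 and above it in 3. The Myh4-dominant nuclei were not alike for Lpl. In those of cluster 0 it was at 10.9 CPM (7.35 to 15.5) in Ctrl and 17.5 CPM (11.3 to 25.8) in cKO, and in those of cluster 3, with 449 and 319 nuclei, at 6.36 CPM (8 UMIs) and 4.28 CPM (3 UMIs). In those of clusters 1 and 2, with 167 and 74 cKO nuclei, it was at 36.9 and 28.8 CPM in Ctrl and at 119 and 120 CPM in cKO. Clusters 1 and 2 held 38 and 26 of the 105 cKO UMIs of Lpl in this class, so the higher level lay mostly in a minority of its nuclei. In undetermined nuclei Lpl was 2.36-fold higher in cKO (log2 ratio 1.24, 0.80 to 1.71), and in mixed nuclei it was lower (−0.71, −1.13 to −0.29). Fabp3 had an interval that included 0 in each of the 4 classes, although its level over all myonuclei was higher in cKO.

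Among the enzymes, Acsl1 was lower in cKO in Myh2-dominant nuclei, with a log2 ratio of −0.54 (−0.81 to −0.26), and lay within counting error of no difference in the other 3 classes. In the Myh2-dominant nuclei of cluster 4 it was at 523 and 422 CPM (−0.31, −0.62 to 0.00), and in those of cluster 2 at 415 and 212 CPM from 13 and 48 UMIs (−0.97, −1.88 to 0.04). Acadm was higher in Myh2- (0.73, 0.23 to 1.24) and Myh4-dominant nuclei (0.32, 0.07 to 0.57), at 0.03 (−0.46 to 0.51) in Myh1- and at −0.79 (−1.51 to 0.03) in Myh7-dominant nuclei, the last from 17 Ctrl UMIs. Where the main myosin had to hold 80% of the myosin UMIs, the Myh2-dominant value was 0.10 (−0.55 to 0.77). In the clusters with most Myh4-dominant nuclei Acadm was at 0.03 (−0.33 to 0.39) in cluster 0, 0.89 (0.36 to 1.42) in cluster 3 and 0.05 (−0.72 to 0.80) in cluster 1. The Myh2-dominant nuclei had 0.66 (0.04 to 1.30) in cluster 4 and −0.19 (−1.22 to 1.01) in cluster 2. Hadha was higher in Myh4-dominant nuclei (0.42, 0.18 to 0.65), and its intervals included 0 in the others. In the clusters with most Myh4-dominant nuclei it was at 0.21 (−0.16 to 0.57) in cluster 0, 0.78 (0.25 to 1.30) in cluster 3 and 0.04 (−0.62 to 0.67) in cluster 1. In the Myh2-dominant nuclei it was at 0.08 (−0.37 to 0.54) in cluster 4 and −1.72 (−2.86 to −0.47, 10 and 22 UMIs) in cluster 2.

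The mix of nuclei differed between the libraries: Myh4-dominant nuclei held 68.5% of myonuclear UMIs in Ctrl and 43.1% in cKO, and Myh7-dominant nuclei 0.552% and 9.20%. The CPM difference between the libraries was therefore split into a part from the shares of the classes and a part from levels within them. For Pdk4 the whole difference of −511 CPM was made of 33.1 CPM (19.7 to 46.6) from shares and −544 CPM (−569 to −520) from levels. For Ucp3 it was −28.0 CPM (−32.5 to −23.5) from shares and −153 CPM (−166 to −140) from levels. The lower levels of both genes in cKO thus lay within the classes in this split.

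For the genes that were higher in cKO the split ran the other way. Of the 58.2 CPM by which Lpl was higher, 50.6 CPM (43.8 to 57.5) came from shares and 7.51 CPM from levels, with an interval that included 0. Cd36 had 80.3 CPM (69.2 to 91.4) from shares and −47.9 CPM (−65.8 to −30.1) from levels. Fabp3 had 16.2 CPM from shares and −2.92 CPM (−10.5 to 4.64) from levels, and Acsl1 29.2 CPM from shares and −8.32 CPM (−27.3 to 10.6) from levels. For Acadm the part from levels, 17.8 CPM (4.10 to 31.4), was above 0 beside 28.7 CPM from shares, and for Hadha the parts were 10.5 CPM (−2.39 to 23.5) and 22.6 CPM.

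**Figure D3:**
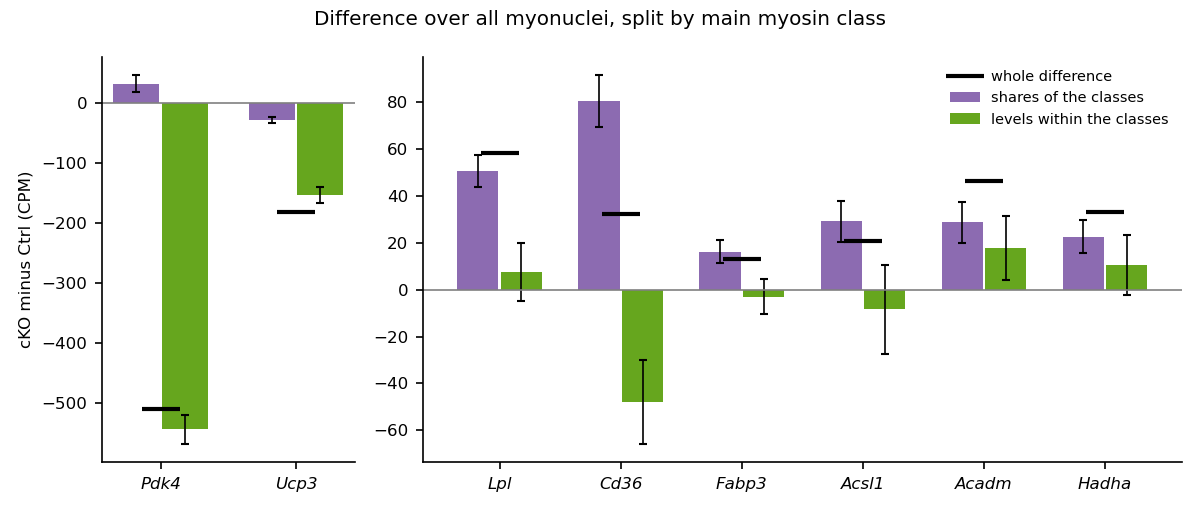
Difference in level between the libraries (cKO minus Ctrl, CPM, vertical axes of different scale) over all myonuclei, split into the part from shares of the myosin classes (purple bars) and from levels within them (green bars), with 95% counting intervals. Black lines mark the whole difference. For Pdk4 and Ucp3 the green bars carry most of it, and for the other 6 genes the purple bars exceed the green ones.

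Outside the fibres, levels have to be read against the RNA of fibre genes found in the same nuclei. Free RNA, which enters droplets of every kind, is a possible source, but the source was not tested. Titin (Ttn), a protein of the sarcomere, was found at 16782 CPM in FAP-like and 28465 CPM in endothelial-like nuclei of Ctrl. Both kinds pool clusters that differ in it. Over both libraries Ttn was at 5875 and 32784 CPM in the endothelial-like clusters and at 10609, 17976 and 25803 CPM in the FAP-like clusters. A main myosin was received by 27.0% of Ctrl and 23.4% of cKO nuclei outside the fibres, against 80.2% and 73.0% of myonuclei. Each level was therefore set as a percent of the myonuclear level of the same library, beside the same percent for the fibre genes Myh4, Ttn, Mylk4, Trim63, Neb and Ryr1. Of 140 combinations of the 10 genes, 7 kinds of nuclei and 2 libraries, 119 gave a percent, since Cpt1b in both libraries and Angptl4 in cKO had too few myonuclear UMIs. In 22 of the 119 the interval lay wholly above the highest of the 6 fibre genes (24 without 1 Ctrl nucleus described below). Over all genes 19.2% of 190155 such combinations did so, a share close to that of the 10 genes, and the values below are descriptions of single genes.

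Cd36 and Lpl made up 11 of these 22. In endothelial-like nuclei Cd36, which capillary endothelium is known to express, was at 746 CPM (628 to 880) in Ctrl and 323 CPM (207 to 481) in cKO. This was 523% (436 to 625) and 185% (118 to 276) of the myonuclear level, where the fibre genes lay between 41% and 63.1% in Ctrl and between 59.1% and 92.7% in cKO. The endothelial-like nuclei numbered 83 and 45. Lpl was at 197 CPM (139 to 272) there in Ctrl, or 271% of the myonuclear level, and at 80.8 CPM from 6 UMIs in cKO. In FAP-like nuclei Lpl was at 128 CPM (98.4 to 164) in Ctrl and 115 CPM (74.9 to 168) in cKO, or 176% (133 to 229) and 87.5% (56.8 to 129), above the fibre genes in both libraries.

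Among the kinds of nuclei outside the fibres, the adipocyte-like ones, 8 in Ctrl and 9 in cKO, had the highest levels of Acsl1 and Lpl in both libraries and of Cd36 in cKO. In Ctrl, 1 of the 8 nuclei held 58.5% of their UMIs and 1559 of their 1626 UMIs of Ttn, with 0 UMIs of the adipocyte genes Adipoq and Plin1, so values are given with and without it. Acsl1 reached 765 CPM there in Ctrl and 895 CPM in cKO, or 311% (220 to 426) and 335% (201 to 525) of the myonuclear level. Cd36 was at 529 CPM (349 to 770) and 942 CPM (575 to 1455), and Lpl at 373 CPM (224 to 582) and 236 CPM (76.5 to 550). Without that nucleus the Ctrl levels were 1514 CPM (1035 to 2137) for Acsl1, 1088 CPM (690 to 1632) for Cd36 and 757 CPM (433 to 1229) for Lpl, or 615%, 763% and 1039% of the myonuclear level in place of 311%, 371% and 512%. The fibre genes then lay between 3.02% and 19.9% in Ctrl, beside 0% to 10.6% in cKO. Angptl4 was found here at 98.0 CPM from 5 UMIs in Ctrl (3 UMIs without that nucleus) and 47.1 CPM from 1 UMI in cKO. Outside the fibres as a whole Angptl4 had 14 UMIs in Ctrl (12.9 CPM, 7.04 to 21.6) and 1 UMI in cKO (2.46 CPM, 0.0623 to 13.7), with overlapping intervals. The far larger number of myonuclei had 8 and 0 UMIs.

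Pdk4 had an interval wholly above the fibre genes in none of the 7 kinds of nuclei. In FAP-like nuclei it was at 213 CPM (174 to 258) in Ctrl and 13.2 CPM (2.73 to 38.6) in cKO. These were 32.7% (26.6 to 39.8) and 9.41% (1.94 to 27.6) of the myonuclear level, beside 32.6% to 46.8% and 25% to 45.5% for the fibre genes. In endothelial-like nuclei it was at 330 CPM and 135 CPM, or 50.7% and 95.9%. Free RNA of Pdk4 from the fibres would itself be lower in cKO, and its part in these values was not tested. Ucp3 exceeded the fibre genes in 1 of its 14 combinations, the cKO adipocyte-like nuclei, with 3 UMIs, and Fabp3 in none. Without the deepest Ctrl adipocyte-like nucleus, Ucp3 also did so in the Ctrl ones, at 118% (43.2 to 257) from 6 UMIs. Cpt1b had 0 UMIs outside the fibres and gave no percent.

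**Figure D4:**
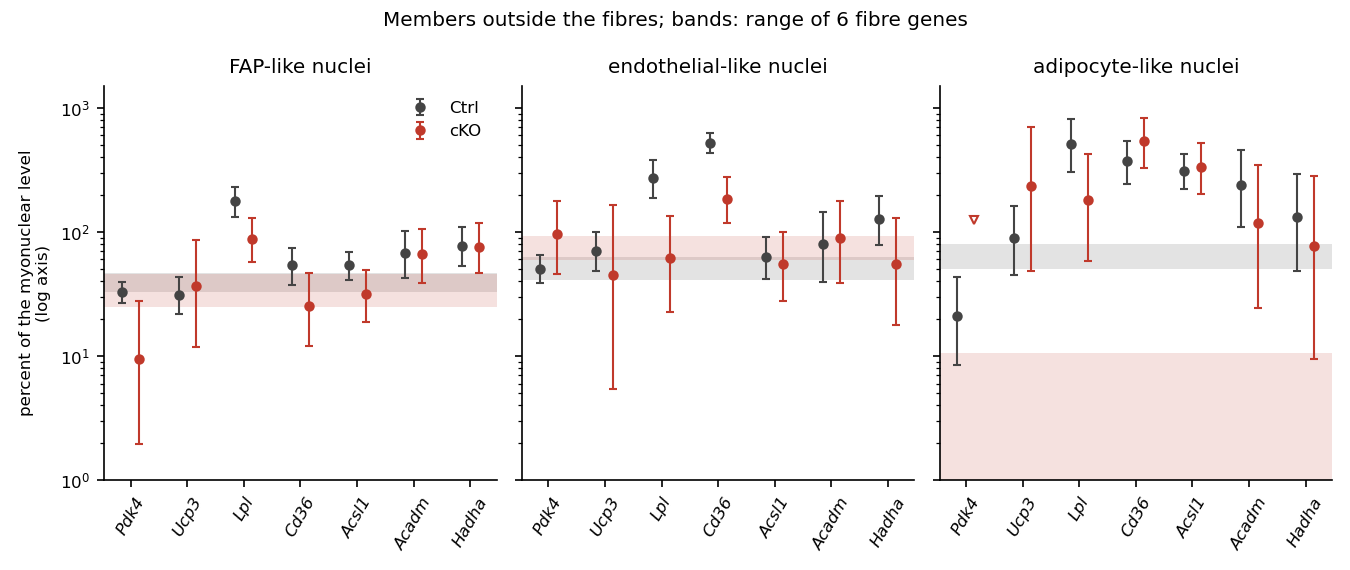
Level of 7 genes outside the fibres as a percent of their level in myonuclei of the same library (log axis), in Ctrl (grey) and cKO (red), with exact conditional 95% intervals drawn down to 1%. Bands span the 6 fibre genes in each library, and the open triangle marks the upper bound of a count of 0. Cd36 in endothelial-like nuclei and Lpl, Cd36 and Acsl1 in Ctrl adipocyte-like nuclei stand above the bands with their whole intervals, and no interval of Pdk4 does. The Ctrl adipocyte-like values include the nucleus that held 58.5% of their UMIs.

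The other genes of the pathway came from a list of 69, of which 56 had at least 20 UMIs in myonuclei. Of these, 3 were at least 2-fold higher and 6 at least 2-fold lower in cKO, beside the 3.82% and 5.29% of all genes given above, and their median log2 ratio was 0.03. Among those with at least 50 UMIs, the highest values were those of Mgll, which cleaves monoacylglycerols (34.4 and 88.9 CPM, log2 ratio 1.37, 1.16 to 1.58), the fatty acid transporter Slc27a1 (19.4 and 45.3 CPM, 1.22, 0.94 to 1.52) and the kinase Pdk1, which acts on pyruvate dehydrogenase as Pdk4 does (13.6 and 26.6 CPM, 0.97, 0.61 to 1.33). Etfb, with 30 UMIs in all, was the third gene past 2-fold.

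The lower genes included 3 of the lipid droplet coat. Plin3 had 33.9 CPM in Ctrl myonuclei and 9.50 CPM in cKO (log2 ratio −1.83, −2.25 to −1.43). Plin4 was at 83.8 and 34.7 CPM (−1.27, −1.49 to −1.05) and Plin5 at 6.59 and 2.67 CPM (−1.30, −2.17 to −0.50). Plin2, a further coat protein, was at 22.3 and 32.2 CPM (0.53, 0.23 to 0.83) and so lay in the opposite direction. The lowest value was that of Cav1, a component of caveolae that endothelial cells and adipocytes also express, at 7.25 and 1.19 CPM from 55 and 8 UMIs (−2.61, −3.89 to −1.53). Within Myh4-, Myh1- and Myh2-dominant nuclei the log2 ratio of Plin3 was −1.98, −1.49 and −2.08 and that of Plin4 −1.40, −0.79 and −1.22, while that of Mgll was 0.83, −0.06 and 0.20 and that of Slc27a1 1.01, 0.57 and −0.26. Plin5, with 50 and 18 UMIs in all, had −3.55, −1.75 and −3.67 there. Each of these rests on a part of those few UMIs and has no interval, so a deeper loss than −1.30 is not shown. The acyl-CoA synthetase Acsl3 was at 91.8 and 40.7 CPM (−1.17, −1.38 to −0.97), and the sixth gene was Fabp4, with 23 UMIs in all.

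By role, beta-oxidation had 0 of 15 genes at least 2-fold lower and 1 at least 2-fold higher, with 9 above and 6 below a ratio of 1. The carnitine shuttle had 0 of 8 past 2-fold in either direction. Uptake and lipolysis outside the cell had 1 of 7 higher and 2 lower, activation 0 of 4 higher and 1 lower, and the lipid droplet 1 of 12 higher and 3 lower. Fuel switching, which held the other pyruvate dehydrogenase kinases, its phosphatases and subunits and the pyruvate carriers, had 0 of 10 past 2-fold. With 4 to 15 genes a role, most of these counts lie near the 3.82% and 5.29% of all genes, and of all genes 4763 lay above and 6663 below a ratio of 1. Pdk2, the other kinase with over 50 UMIs, was at 34.4 and 35.8 CPM, a log2 ratio of 0.06 (−0.20 to 0.31) that did not differ from 0 beyond counting error.

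**Figure D5:**
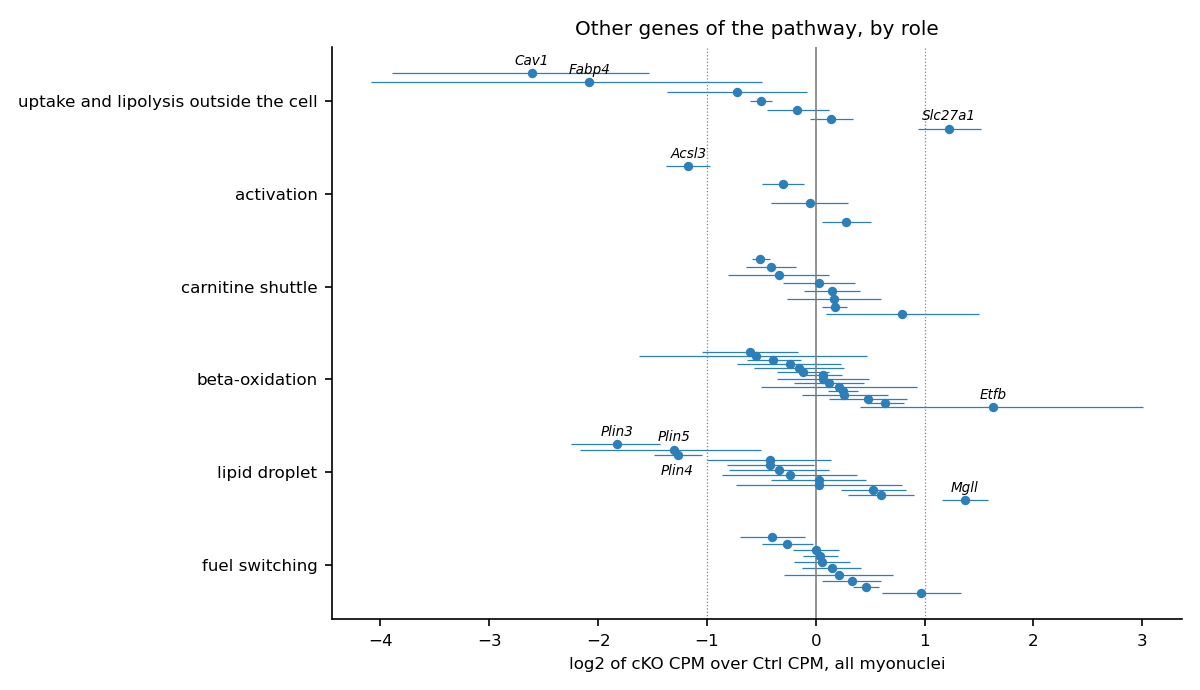
log2 of cKO CPM over Ctrl CPM in all myonuclei for the 56 other pathway genes with at least 20 UMIs (points, with exact conditional 95% intervals), grouped by role. Dotted lines mark 2-fold and the 9 genes at or past them are named. Plin3, Plin4 and Plin5 lie on the left of the lipid droplet row and Mgll on its right, and none of the fuel switching genes passes either line.

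The likeness of other genes was read as Pearson's r of log2(CPM + 1) over 11 points, the myosin classes of each library with enough UMIs, among 3288 genes. The points share 2 libraries, so r describes these data and carries no p. For Pdk4 the closest were D5Ertd579e (0.94), Zbtb16 (0.93) and Plin4 (0.93). For Ucp3 they were Tbx15 (0.98), Srrm2 (0.98) and Mpp3 (0.97), for Cd36 Atp1b1 (0.98), Mybpc1 (0.97) and Rcan2 (0.97), and for Acsl1 Fnip1 (0.98), Fgfr1op (0.96) and Adamtsl5 (0.96). Among the 8 genes themselves, Lpl had r of 0.95 with Cd36, 0.95 with Fabp3 and 0.94 with Hadha, Ucp3 had −0.84 with Acadm, and Pdk4 was closest to Ucp3 at 0.69.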

How the data were processed

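Raw counts of UMIs per gene and nucleus, deposited by the authors, came from Cell Ranger 3.1.0 with the mm10 genome at default settings. The annotation release and whether the reference counted introns are not given in the sources used here, and both could change a gene's count. Labels and methods differ on the kit release, and the titles name 1 mouse where the protocol pools 3 muscles.

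Nuclei with at least 100 genes, at least 500 UMIs and at most 10% mitochondrial UMIs were kept (3833 Ctrl, 3908 cKO of 3863 and 3994 barcodes). Scrublet (scanpy 1.11.5) marked 0 in either library, so the 8% with the highest score were removed (307 and 313). Libraries were integrated with Seurat 5.3.0 (sctransform 0.4.2) on 2988 features without the 10 genes and the pathway list, with 25 principal components and resolution 0.3. Clusters with at least 3 detected non-fibre markers were named "-like". Clusters of fibre genes, and 1 led by mitochondrial genes with Ttn above all named non-fibre clusters, were myonuclei.

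UMIs were summed per library and class. Intervals are exact at 95% (Poisson for CPM, Clopper-Pearson for shares, conditional for ratios). Parts of the split have a normal interval from Poisson errors. Counts of 0 were set to a floor of 3 UMIs. UMIs are molecules, but intervals cover counting error only. The ratio code was tested on simulated data. All 10 genes are reported. Other pathway genes are named if past 2-fold with at least 50 UMIs or among the 3 highest and 3 lowest, and like genes are the 3 with the highest r for the 4 genes with most UMIs. Etfb, Fabp4, Plin2 and Pdk2 were named after their values were seen. Coordinates are from GENCODE M21 (GRCm38), promoters from RefSeq. The genes and lists were chosen with earlier results of these data known.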

Additional observations from a re-analysis of the deposited data

Results flagged for a closer look

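The genes Lpl and Cd36 lay in opposite directions in different myosin classes, with the counting interval on each side clear of 0. The difference between classes was not tested, since each group has 1 library. For Lpl the log2 ratio of cKO over Ctrl was 1.47 higher in Myh4- than in Myh2-dominant nuclei (1.05 against −0.42). For Cd36 it was 1.68 higher in Myh4- than in Myh7-dominant nuclei (0.37 against −1.31), 0.86 higher than in Myh2-dominant nuclei (against −0.50) and 1.16 higher than in Myh1-dominant nuclei (against −0.79). The Myh7-dominant value rests on 27 Ctrl UMIs of Cd36. In the Myh4-dominant nuclei of cluster 0 Lpl was at 10.9 and 17.5 CPM (log2 ratio 0.68, −0.14 to 1.50) and in those of cluster 3 at 6.36 and 4.28 CPM (−0.57, −3.12 to 1.49), against 1.69 in those of cluster 1 and 2.06 in those of cluster 2. In the Myh2-dominant nuclei of cluster 4, which held most of that class, the value was −0.08 (−0.41 to 0.26) for Lpl and −0.18 (−0.45 to 0.10) for Cd36, against −1.78 and −1.63 in those of cluster 2. These were 14 of the Myh2-dominant Ctrl nuclei and 87 of the cKO ones, so the libraries filled the clusters of this class unequally. In the Myh1-dominant nuclei of cluster 1 Cd36 was at −0.61 (−0.92 to −0.32). In the Myh4-dominant nuclei it was at 0.40 (−0.21 to 0.99) in cluster 0 and 0.51 (−0.08 to 1.08) in cluster 1. It was at 1.10 (0.37 to 1.84) in those of cluster 3 and −0.88 (−1.77 to 0.00) in those of cluster 2. These contrasts depend on the settings. With the main myosin called after thinning to 500 UMIs, the interval included 0 for Lpl in Myh4-dominant nuclei (0.19, −0.70 to 1.10) and for Cd36 in Myh4- (0.41, −0.21 to 1.04) and Myh1-dominant nuclei (−0.02, −0.47 to 0.44). It also included 0 for Lpl in Myh2-dominant nuclei without Malat1 and mitochondrial genes in the total (−0.25, −0.55 to 0.05) and with 5 myosin UMIs required (−0.33, −0.66 to 0.01), and for Cd36 there with an 80% rule (−0.23, −0.59 to 0.14).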

How the results depend on the processing

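Across the alternatives, 481 single values were recomputed, and 31 of them left the main interval. No log2 ratio whose counting interval had excluded 0 changed its direction. The 481 include values that could not change direction, the percents of the myonuclear level. They also include ratios under other filters on low counts, which leave a ratio as it was. The setting without the deepest adipocyte-like nucleus could move only values of Ctrl adipocyte-like nuclei. Of these 31, 14 came with the main myosin called after thinning to 500 UMIs, 8 with an 80% rule, 4 with doublets kept, 4 without the deepest adipocyte-like nucleus (an alternative chosen after seeing the data) and 1 without Malat1 and mitochondrial genes in the total. Pdk4 lay between −2.29 and −2.12 and Ucp3 between −2.03 and −1.89 over all myonuclei on the log2 scale. The 2 genes at least 2-fold lower over all myonuclei became 3, with Angptl4 at its bound of 8 against 0 UMIs, without a filter on low counts. Lpl, the 1 gene at least 2-fold higher within a myosin class, was under 2-fold, so that 0 genes passed, with doublets kept, with 5 myosin UMIs required and with the main myosin called after thinning. The number of genes with a higher share of myonuclei in cKO, 2 at 500 UMIs, was 4 at 1000 UMIs, where 69 Ctrl and 455 cKO nuclei were too shallow. Counting the cluster led by Plekhh1 as myonuclei, or leaving out the mitochondria-led cluster of 184 nuclei, was chosen after seeing the data and moved none of the values of the 8 genes outside their intervals. With doublets kept, that mitochondria-led cluster fell outside the myonuclei.

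No paired analysis was possible because each group has 1 library. Differences between animals, batch and genotype cannot be told apart. Depth limits Myh7-dominant Ctrl nuclei (20 nuclei, 41843 UMIs), nuclei outside the fibres and the genes Cpt1b and Angptl4.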

Other observations

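The cluster led by Plekhh1, Tmem100 and Htra1, with 114 Ctrl and 29 cKO nuclei, belonged to no comparison. Pdk4 was at 267 CPM (208 to 338) in its Ctrl and 188 CPM (111 to 297) in its cKO nuclei, a log2 ratio of −0.51 (−1.34 to 0.25). Ucp3 was at 149 and 41.8 CPM (−1.84, −3.78 to −0.36), Acsl1 at 233 and 209 CPM (−0.16, −0.97 to 0.59) and Hadha at 111 and 52.2 CPM (−1.09, −2.81 to 0.30). Lpl had 2 and 1 UMIs there.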
